A study of Homo sapiens with 9 samples.

Results

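Glycolysis and the hypoxia response were examined in HAL-01, a human leukemia line of B cell precursors (B-ALL) in which the t(17;19) translocation makes the fusion transcription factor TCF3::HLF. The genes comprised 36 members of 62700 annotated genes, chosen by symbol for what their products do, with earlier results of these data known: 17 glycolytic enzymes and lactate dehydrogenases, 4 transporters, 5 regulators of glycolytic flux, and 10 genes of the hypoxia response. All 9 libraries came from one line that stably expressed Cas9 and GFP. In 6 of them (the MEF2C-enhancer KO class) a single guide RNA, either sgRNA_96 or sgRNA_97, had been directed at the HLF motif of the enhancer of MEF2C that TCF3::HLF binds, with 3 libraries per guide. In the other 3, which served as controls, the scrambled guide SCR1 was used. Cells of every group were harvested on day 13 and carried the replicate numbers 1, 3 and 4. The share of edited cells in each culture was not analysed here, nor were the oxygen and glucose that the cells had at harvest, so a difference is one of whole cultures. In bulk RNA, fewer cells of a kind and less RNA per cell cannot be told apart. The labels do not say whether replicates were separate cultures, so p-values measure only the spread between these libraries, which may be technical.

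Glycolysis splits glucose into pyruvate in the cytosol. Glucose enters through transporters of the SLC2A family, hexokinase traps it as a phosphate ester, phosphofructokinase commits it, and the later enzymes recover ATP and NADH. Lactate dehydrogenase regenerates NAD+ by turning pyruvate into lactate, which leaves through monocarboxylate transporters of the SLC16A family, and pyruvate dehydrogenase kinases hold pyruvate back from the mitochondrion. When oxygen is scarce the prolyl hydroxylases of the EGLN family no longer mark the alpha subunits HIF1A and EPAS1 for destruction by VHL, and the stabilised factors raise many of these same genes. MYC is also known to raise glycolytic enzymes.

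Levels are given as CPM, estimated counts scaled to a library size of 1000000, when libraries are compared, and as TPM, which corrects for transcript length, when genes are compared. Fold changes and p-values come from the quasi-likelihood test of edgeR, and the p-values were adjusted by the Benjamini-Hochberg method over all 14436 genes that passed the filter on low counts, and a gene is said to have risen or fallen only with an adjusted p under 0.05. Of the 36 members 34 passed that filter. PFKFB2, with a total of 2 counts in all libraries together, and EGLN3, with 1, did not and were not tested. Totals lay between 15212462 and 29777361 counts per library, and mitochondrial genes took 5.97 to 6.35% of them in SCR1 and 6.22 to 7.01% in the KO libraries, 5 of which lay above every control. The part of this share in the results was not tested. MEF2C, the gene of the targeted enhancer, stood at 559.6, 559 and 536 CPM in SCR1 replicates 1, 3 and 4 and from 495 to 553 CPM (median 501) in the KO libraries. Of the 6 KO libraries 5 lay below every control, but the difference did not pass the threshold (log2 fold change -0.12 ± 0.04 SE, adjusted p = 0.06198). The paper, with its own analysis, reported MEF2C as down-regulated in this RNA-seq, and also found lower MEF2C RNA and protein after disrupting the motif. Of 12 B cell precursor markers 11 reached 1 CPM, CD34 being the exception. The sum of the 12 was 5734 to 5931 CPM in SCR1 and 6149 to 6424 CPM in the KO libraries. Of the 12, 3 rose, where 10.1% of all genes tested rose, and none fell, where 10.6% fell. Their median log2 fold change was 0.04, and 6 had a negative one. None of 7 T cell, 6 erythroid or 6 epithelial and kidney markers reached 1 CPM, and of 8 stromal markers only PDGFRB did. Among 8 myeloid markers CD14, LYZ, CD68, ELANE and FCN1 stayed under 1 CPM in every library, while ITGAM and MPO rose in the KO libraries (log2 fold change 0.74, adjusted p = 0.000162, and 1.08, adjusted p = 0.000894, in edgeR) and CSF1R had a log2 fold change of -0.21 that did not pass the test (adjusted p = 0.124). The summed myeloid markers came to 26.2 to 28.03 CPM in SCR1 and 30.1 to 36.3 CPM in the KO libraries, and the part of either marker list in the results below was not tested.

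Hypoxia-inducible factors and the MYC family of factors read closely related short DNA words, so the stretches just before the transcription starts of the genes were read from RefSeq (GRCh38.p14). The words searched on both strands were ACGTG and GCGTG, the core of the hypoxia response element, and CACGTG, the E-box, each copy of which also holds ACGTG on both strands. Of the 36 members, 31 had a promoter sequence, of which the 250 bases before the start nearest to that of the most counted transcript were used. A hypoxia core was found in 22 of them (70.97%), 11 of 17 enzymes and 7 of 8 hypoxia response genes among them, against 43.2% of 35116 promoters of all genes. An E-box was found in 4 (12.9%) against 6.34%. The member and background shares are of unlike units. Each member was counted at a single start, while the background counted every listed start of a gene. GC content was not matched either, so the shares were not read as an enrichment. Such a match is a description of the letters and not of a bound site. The counts rest in part on starts far from that of the most counted transcript, 193509 bases away for PGK1, 1627 for PGAM1, 1095 for EGLN1 and 747 for GAPDH. Of the 24 members whose start lay within 100 bases, 17 held a hypoxia core and 3 an E-box. The windows printed here are, of those counted, the ones of ALDOA, which fell, of PFKL and EGLN1, which rose, and of HIF1A, the factor itself. None holds more than 30 bases of an annotated exon, and each is given 5′ to 3′ on the strand of its gene with the words found in capitals. They are ALDOA at chr16:30065510-30065759, plus strand, PFKL at chr21:44299803-44300052, plus strand, EGLN1 at chr1:231422288-231422537, minus strand, and HIF1A at chr14:61695263-61695512, plus strand.

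ALDOA: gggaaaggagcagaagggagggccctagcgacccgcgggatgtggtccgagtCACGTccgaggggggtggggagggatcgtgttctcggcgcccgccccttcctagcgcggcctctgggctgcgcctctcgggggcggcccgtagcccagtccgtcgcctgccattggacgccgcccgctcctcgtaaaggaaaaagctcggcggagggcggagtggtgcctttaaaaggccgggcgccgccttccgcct
PFKL: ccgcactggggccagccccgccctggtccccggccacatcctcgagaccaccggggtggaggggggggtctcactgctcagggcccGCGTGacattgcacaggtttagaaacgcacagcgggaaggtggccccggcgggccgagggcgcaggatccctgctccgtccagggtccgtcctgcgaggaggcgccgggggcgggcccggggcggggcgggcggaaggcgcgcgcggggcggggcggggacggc
EGLN1: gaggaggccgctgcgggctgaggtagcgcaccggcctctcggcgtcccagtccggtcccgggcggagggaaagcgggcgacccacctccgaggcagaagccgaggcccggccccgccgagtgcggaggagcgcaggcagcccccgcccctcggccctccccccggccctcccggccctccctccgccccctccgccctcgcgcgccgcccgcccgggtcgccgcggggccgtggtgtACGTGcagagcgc
HIF1A: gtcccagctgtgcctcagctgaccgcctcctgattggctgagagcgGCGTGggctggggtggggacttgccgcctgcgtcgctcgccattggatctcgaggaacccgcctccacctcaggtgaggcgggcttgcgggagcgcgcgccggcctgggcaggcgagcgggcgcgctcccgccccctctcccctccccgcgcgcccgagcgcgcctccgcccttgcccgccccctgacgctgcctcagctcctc

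Each of the 4 windows held 1 hypoxia core and no E-box, but they were picked for print and do not stand for the other counted windows. Those of PKM and LDHB, which fell, held no core, and that of PGK1, which fell, held 3. BNIP3, which did not pass the test, had 6 cores and 1 E-box. The window of LDHA that was counted held 1 hypoxia core and no E-box. LDHA has another listed start, 1715 bases from that of its most counted transcript, and the window before it held 5 cores and 2 E-boxes. In the core counts of LDHA and BNIP3 each E-box was also counted as 2 cores, 1 per strand, so they exceed the number of separate sites.

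To ask whether glycolytic genes responded to targeting of the enhancer, the 6 KO libraries were set against the 3 controls. The enzymes were mostly lower in the KO libraries: 13 of 17 fell and 1, PFKL, rose, while HK2, PFKM and ALDOC did not pass the test. Over all genes tested, 10.6% fell and 10.1% rose. The changes were small. The median log2 fold change of the 17 enzymes was -0.21, against 0.0028 over all genes tested, and the most changed enzyme was ALDOA, which fell by 23.3%. Values of the 6 KO libraries lay below all 3 controls for 12 of the 17, against 10.2% of all genes tested, and above them for 1, against 10.1%. Summed over the 17 enzymes, transcript abundance was 10203 ± 452 TPM (SD, n = 3) in SCR1 and 8774 ± 431 TPM (SD, n = 6) in the KO libraries. The enzymes are abundant, and abundant genes were more often called: of 780 genes with a mean of at least 200 CPM, 28.1% fell and 14.6% rose, with a median log2 fold change of -0.04. The 11 enzymes at that level included 10 that fell, and their median was -0.26. The direction of the 13 held in every alternative, but the number of calls did not. Without SCR1 replicate 1, the deepest library, 8 enzymes fell, and HK1, PFKP, TPI1, PGK1 and ENO2 lost their calls. The same 5 lost them, and 8 remained, with limma on log2(TPM + 1), and 3 (PGAM1, LDHA and LDHB) remained when that fit had no filter on low values.

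**Figure D1:**
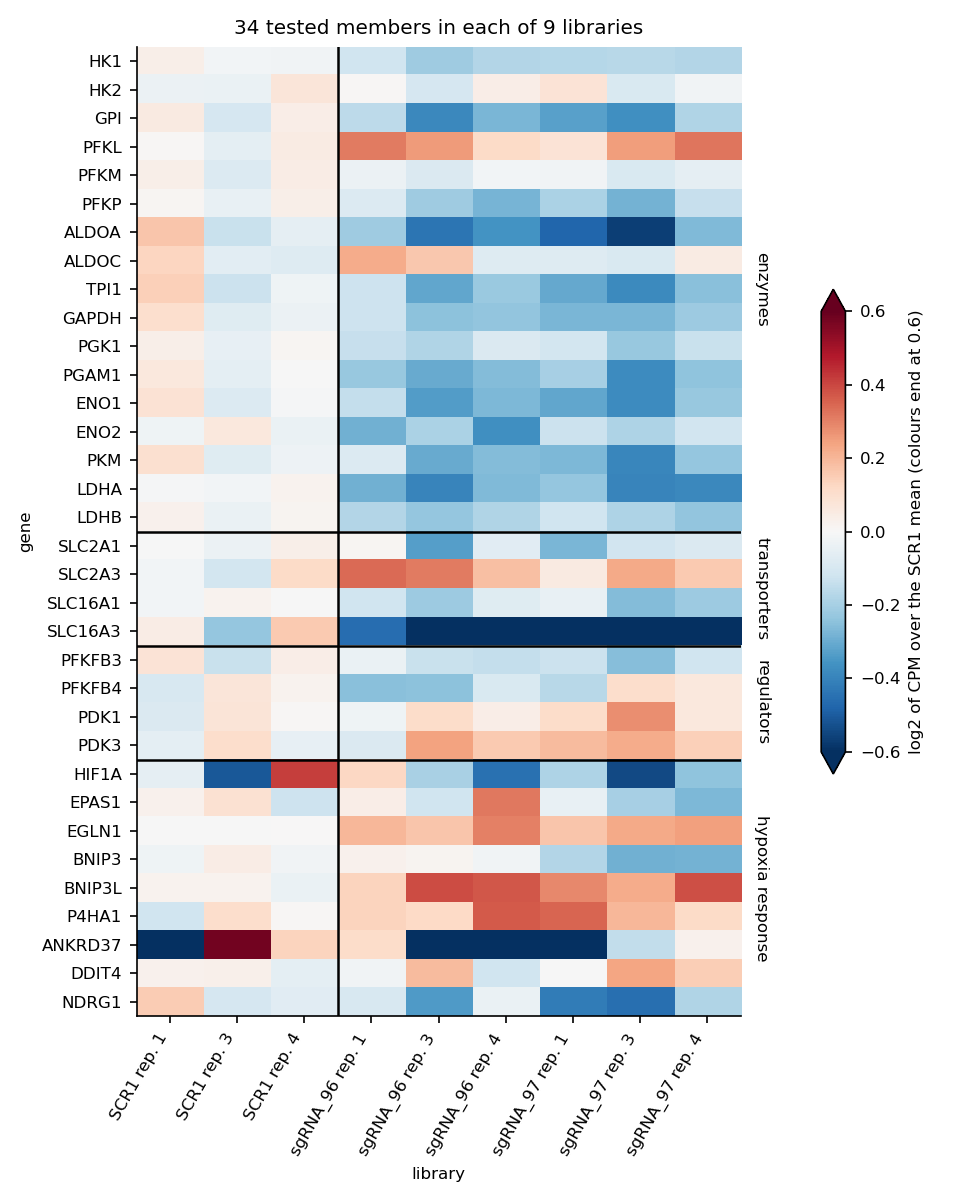
Colour gives log2 of the CPM over the mean of the 3 SCR1 libraries for the 34 tested members (rows, by role) in each of the 9 libraries (columns), with blue for lower and red for higher and the scale ending at 0.6 in either direction. Most enzyme rows are blue across the 6 KO columns, PFKL is red in all 6, and ANKRD37, HIF1A and SLC16A3 spread widely at counts of 9 to 235 per library.

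The early steps that consume ATP moved unequally. HK1 and HK2 are the hexokinases that trap glucose. HK1 stood at 49.7, 47.95 and 47.8 CPM in SCR1, 44.6, 41.8 and 42.9 CPM with sgRNA_96 and 43.1, 43.2 and 42.9 CPM with sgRNA_97, with every KO library below every control (log2 fold change -0.17 ± 0.05 SE, adjusted p = 0.0203). HK2, the hexokinase most often tied to growth in tumours, was at 109.6, 109 and 118 CPM in SCR1 and from 105 to 119 CPM (median 112) in the KO libraries, so the groups overlapped (log2 fold change -0.01 ± 0.05 SE). GPI turns glucose 6-phosphate into fructose 6-phosphate. It was at 290.01, 261 and 286 CPM in SCR1, 249.9, 214 and 230.5 CPM with sgRNA_96 and 223, 216 and 246 CPM with sgRNA_97 (log2 fold change -0.28 ± 0.06 SE, adjusted p = 0.00205), and the groups did not overlap.

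Phosphofructokinase, which commits sugar to glycolysis, is built from 3 related subunits, and they did not move together. PFKL (ENSG00000141959.17, chromosome 21, 44300051 to 44327376, plus strand) was the only enzyme among the 17 that rose. Its level was 461, 439.99 and 474 CPM in SCR1, 569, 547 and 497 CPM with sgRNA_96 and 484, 545 and 573 CPM with sgRNA_97, so that all 6 KO libraries lay above all controls (log2 fold change 0.23 ± 0.05 SE, adjusted p = 0.00769). PFKP, the platelet form, stood at 146, 140.1 and 148 CPM in SCR1, 137, 125 and 119 CPM with sgRNA_96 and 127, 119 and 131 CPM with sgRNA_97, all 6 below the controls (log2 fold change -0.20 ± 0.05 SE, adjusted p = 0.0102). PFKM, the muscle form, was at 124, 115 and 125 CPM in SCR1 and from 114 to 119.9 CPM (median 118) in the KO libraries, with a log2 fold change of -0.05 ± 0.04 SE that did not pass the test. PFKM overlaps SENP1 on the other strand, and whether the counting used strand is not given in the sources used here. PFKL already supplied most phosphofructokinase transcript by TPM, 57.5% ± 0.964 (SD, n = 3) of the family in SCR1 and 63.8% ± 2.24 (SD, n = 6) in the KO libraries, with shares of 56.5 to 58.4% and 60.4 to 66.9% that did not overlap. The family's sum was 373 ± 10.1 TPM in SCR1 and 393 ± 16.9 TPM in the KO libraries.

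Aldolase splits the hexose bisphosphate and triose phosphate isomerase interconverts the products. ALDOA (ENSG00000149925.22, chromosome 16, 30064164 to 30070457, plus strand) was at 698, 568 and 600.2 CPM in SCR1, 536, 459 and 485 CPM with sgRNA_96 and 448, 421 and 517 CPM with sgRNA_97. The highest KO value lay just below the lowest control, and ALDOA fell by 23.3% (log2 fold change -0.38 ± 0.07 SE, adjusted p = 0.00144). A further gene model, ENSG00000285043, overlaps ALDOA on the same strand, as unnamed protein-coding models do GPI, LDHB and EGLN1. RSKR likewise overlaps ALDOC, ATP7A overlaps PGK1 and LRRC23 overlaps ENO2. The division of reads between such pairs is uncertain. The same holds for GAPDH and other enzymes with processed pseudogenes. ALDOC, a minor form at 9.41 ± 1.06 TPM in SCR1, did not change detectably (log2 fold change 0.03 ± 0.10 SE). TPI1 stood at 567, 470.5 and 504 CPM in SCR1, 472, 414 and 441 CPM with sgRNA_96 and 416, 395 and 432 CPM with sgRNA_97. It fell (log2 fold change -0.26 ± 0.06 SE, adjusted p = 0.00487) although 1 KO library, sgRNA_96 replicate 1, lay within the control range.

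The steps that recover NADH and ATP held the most abundant members. GAPDH, the dehydrogenase of the pathway and a gene often used as a loading reference, was the most abundant of all 36 at 4256 ± 249 TPM (SD, n = 3) in SCR1. Its level was 3950.1, 3499.7 and 3594 CPM in SCR1, 3374, 3105 and 3127 CPM with sgRNA_96 and 3040.4, 3048 and 3168 CPM with sgRNA_97. No KO library reached the lowest control, and GAPDH fell by 14.6% (log2 fold change -0.23 ± 0.04 SE, adjusted p = 0.00136). PGK1, which makes the first ATP, was at 352, 332 and 346 CPM in SCR1, 312, 303 and 323 CPM with sgRNA_96 and 318, 293 and 313 CPM with sgRNA_97, without overlap, and fell by 9.61% (log2 fold change -0.15 ± 0.04 SE, adjusted p = 0.0194). PGAM1, the mutase that follows, was at 308, 283 and 294 CPM in SCR1, 252, 239 and 246 CPM with sgRNA_96 and 257, 227 and 249 CPM with sgRNA_97 (log2 fold change -0.27 ± 0.05 SE, adjusted p = 0.000666), and the groups were again apart.

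Enolase makes phosphoenolpyruvate and pyruvate kinase turns it into pyruvate with more ATP. ENO1 stood at 1521, 1354 and 1427 CPM in SCR1, 1301, 1137 and 1189 CPM with sgRNA_96 and 1154, 1105 and 1227 CPM with sgRNA_97, and all KO values were lower (log2 fold change -0.27 ± 0.05 SE, adjusted p = 0.00112). ENO2, the neuronal form, was at 59.6, 63.4 and 58.9 CPM in SCR1, 49.6, 53.2 and 47.04 CPM with sgRNA_96 and 55.5, 53.3 and 55.9 CPM with sgRNA_97 (log2 fold change -0.21 ± 0.06 SE, adjusted p = 0.0195), also without overlap. ENO1 made up 94.8% ± 0.521 of enolase TPM in SCR1 and 93.6% ± 0.759 in the KO libraries. PKM (ENSG00000067225.21, chromosome 15, 72199029 to 72231819, minus strand) stood at 1326, 1180.4 and 1214 CPM in SCR1, 1173, 1006 and 1036 CPM with sgRNA_96 and 1029, 946 and 1055 CPM with sgRNA_97. The nearest KO library, sgRNA_96 replicate 1, was just below the lowest control, and PKM fell by 16.1% (log2 fold change -0.25 ± 0.05 SE, adjusted p = 0.00427).

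PKM makes 2 enzymes from alternative exons of equal length: PKM1, the form of muscle and brain, and PKM2, the form of proliferating and tumour cells, whose activity is allosterically controlled. Because the exons decide which enzyme is made, both are printed from the GENCODE release 44 transcripts, 5′ to 3′ on the coding strand, with the 62 of 167 positions that differ between them in capitals. The PKM1 exon lies at chr15:72203022-72203188 and the PKM2 exon at chr15:72202454-72202620 (hg38, minus strand), and 62.9% of their positions are identical.

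PKM1: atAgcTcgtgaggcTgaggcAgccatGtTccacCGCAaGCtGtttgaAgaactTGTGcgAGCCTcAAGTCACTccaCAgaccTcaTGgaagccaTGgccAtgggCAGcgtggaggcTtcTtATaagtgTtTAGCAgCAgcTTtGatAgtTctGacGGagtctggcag
PKM2: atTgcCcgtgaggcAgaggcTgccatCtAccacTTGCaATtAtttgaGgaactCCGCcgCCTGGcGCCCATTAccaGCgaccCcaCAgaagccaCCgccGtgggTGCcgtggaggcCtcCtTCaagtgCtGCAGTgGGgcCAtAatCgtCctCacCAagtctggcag

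Of the counts on transcripts with either exon, the PKM2 form took 97.4, 97.2 and 97.3% in SCR1, 97.6, 96.6 and 96.9% with sgRNA_96, and 97.03, 97.4 and 96.5% with sgRNA_97. These shares rest on 410 to 969 counts for PKM1 and 13845 to 35620 for PKM2 per library. The groups overlapped, and the means of 97.3% ± 0.09904 (SD, n = 3) and 97.01% ± 0.427 (SD, n = 6) differed by -0.282 percentage points, with p = 0.357 in an exact two-sided permutation test whose smallest possible p is 0.0119. HAL-01 cells thus used the PKM2 exon in all 9 libraries, at a share that was not detectably different in the KO libraries. With all PKM transcripts as the denominator, those with neither exon included, the PKM2 form took 90.8% in SCR1 and 88.5% in the KO libraries (exact permutation p = 0.0476).

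The lactate dehydrogenases LDHA and LDHB form the tetramers that interconvert pyruvate and lactate, with A subunits favouring lactate formation. LDHA (ENSG00000134333.15, chromosome 11, 18394560 to 18408425, plus strand) had the smallest adjusted p of the 36 members. It stood at 627, 624 and 640.3 CPM in SCR1, 517, 479 and 525 CPM with sgRNA_96 and 536, 478 and 482 CPM with sgRNA_97. The controls lay within a narrow band and all 6 KO libraries well below it, and LDHA fell by 20.3% (log2 fold change -0.33 ± 0.04 SE, adjusted p = 0.000101). LDHB was at 893, 853 and 887 CPM in SCR1, 778, 747 and 775 CPM with sgRNA_96 and 808, 773 and 744 CPM with sgRNA_97, again without overlap, and fell by 12.2% (log2 fold change -0.19 ± 0.04 SE, adjusted p = 0.00231). LDHB was the more abundant subunit by TPM, and LDHA made up 35.998% ± 0.887 (SD, n = 3) of the sum in SCR1 and 33.3% ± 0.676 (SD, n = 6) in the KO libraries, with shares of 35.1 to 36.9% and 32.7 to 34.2%. LDHC was listed at 0 in every library.

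**Figure D2:**
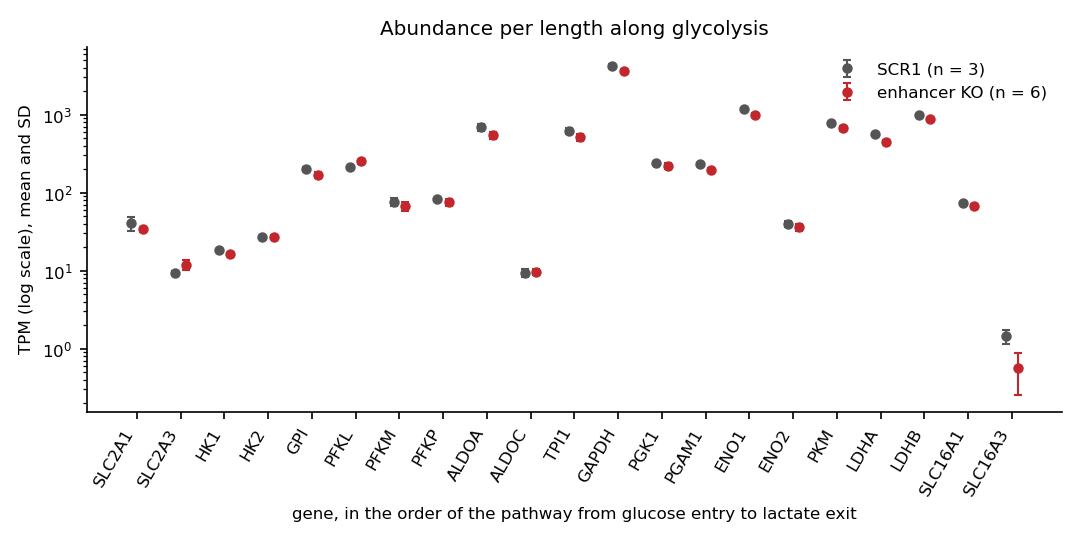
Points give the mean TPM on a log axis of glucose transporters, enzymes and lactate transporters in pathway order, with SD bars, for SCR1 (grey, n = 3) and enhancer KO (red, n = 6). GAPDH is highest at 4256 TPM in SCR1 and SLC16A3 lowest at 1.43 TPM, so the differences between genes far exceed those between groups.

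Of the 4 transporters 2 fell and none rose, where 10.6% of all genes tested fell and 10.1% rose. SLC16A1 (MCT1), a monocarboxylate transporter that moves lactate across the plasma membrane, was at 203, 209 and 205 CPM in SCR1, 189, 177 and 195 CPM with sgRNA_96 and 199, 172 and 177 CPM with sgRNA_97, all below the controls (log2 fold change -0.15 ± 0.05 SE, adjusted p = 0.0372). This call was lost in 10 of 19 alternatives, among them the omission of any one SCR1 library. SLC16A3 (MCT4), the hypoxia-inducible lactate exporter, was barely expressed, at 2.14, 1.77 and 2.32 CPM in SCR1, 1.51, 1.31 and 0.543 CPM with sgRNA_96 and 0.993, 0.526 and 0.772 CPM with sgRNA_97, on 10 to 63 counts per library. It fell (log2 fold change -1.14 ± 0.32 SE, adjusted p = 0.0202) with the largest fold among the members. The call was lost without SCR1 replicate 1 or 4, and the gene overlaps CSNK1D on the other strand. The sum of SLC16A1, SLC16A3, SLC16A7 and SLC16A8 was 76.9 ± 2.38 TPM in SCR1, 96.3% ± 0.374 of it from SLC16A1.

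SLC2A1 (GLUT1), the basal glucose transporter of most cells, was at 53.7, 52.5 and 55.1 CPM in SCR1, 54.2, 42.8 and 51.2 CPM with sgRNA_96 and 44.4, 49.7 and 50.6 CPM with sgRNA_97. Of the 6 KO libraries 5 lay below the controls, and the difference did not pass the test (log2 fold change -0.14 ± 0.07 SE, adjusted p = 0.158). Salmon assigned 52.5% of SLC2A1 counts to SLC2A1-208, annotated as subject to nonsense-mediated decay, and 27.1% to transcripts annotated as protein-coding. SLC2A3 (GLUT3), a high-affinity glucose transporter, was at 25.02, 23.4 and 27.4 CPM in SCR1 and from 26.3 to 32.03 CPM (median 29.1) in the KO libraries (log2 fold change 0.22 ± 0.08 SE, adjusted p = 0.0535), and 5 of 6 KO libraries lay above the controls. In the test of each guide it rose with sgRNA_96 (adjusted p = 0.0443 in edgeR) and did not pass with sgRNA_97 (adjusted p = 0.257), while the guides themselves did not differ past the threshold. SLC2A5, a fructose transporter that is no member, rose (log2 fold change 0.44, adjusted p = 0.000145), and the share of SLC2A1 in the summed TPM of these 3 genes with SLC2A2 and SLC2A4 was 55.997 to 63.1% in SCR1 and 39.8 to 49.8% in the KO libraries.

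None of the 4 tested regulators passed the test, which in the same comparison called 10.1% of all genes higher and 10.6% lower. PFKFB3 and PFKFB4 set the level of fructose 2,6-bisphosphate, the strongest activator of phosphofructokinase. PFKFB3 was at 40.1, 34.6 and 38.9 CPM in SCR1 and from 31.7 to 36.8 CPM (median 34.6) in the KO libraries (log2 fold change -0.14 ± 0.06 SE, adjusted p = 0.134), and PFKFB4, at 3.07 ± 0.158 TPM in SCR1, had a log2 fold change of -0.09 ± 0.12 SE. PDK1 and PDK3 are kinases that switch off pyruvate dehydrogenase. PDK1 was at 28.7, 32.1 and 30.6 CPM in SCR1, 29.9, 32.8 and 31.3 CPM with sgRNA_96 and 32.8, 36.9 and 31.8 CPM with sgRNA_97 (log2 fold change 0.10 ± 0.07 SE, adjusted p = 0.331). PDK3 was at 29.4, 32.8 and 29.5 CPM in SCR1 and from 28.7 to 36.1 CPM (median 34.5) in the KO libraries (log2 fold change 0.15 ± 0.07 SE, adjusted p = 0.159). The PDK1 groups overlapped, and for PDK3 5 of 6 KO libraries exceeded the controls and 1, sgRNA_96 replicate 1, lay below them. PFKFB2 was listed at 0 except for 2 counts in sgRNA_97 replicate 3. PDK2, another kinase of the family, made up 56.1% ± 4.48 of PDK transcript by TPM in SCR1 and 55.3% ± 3.34 in the KO libraries.

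**Figure D3:**
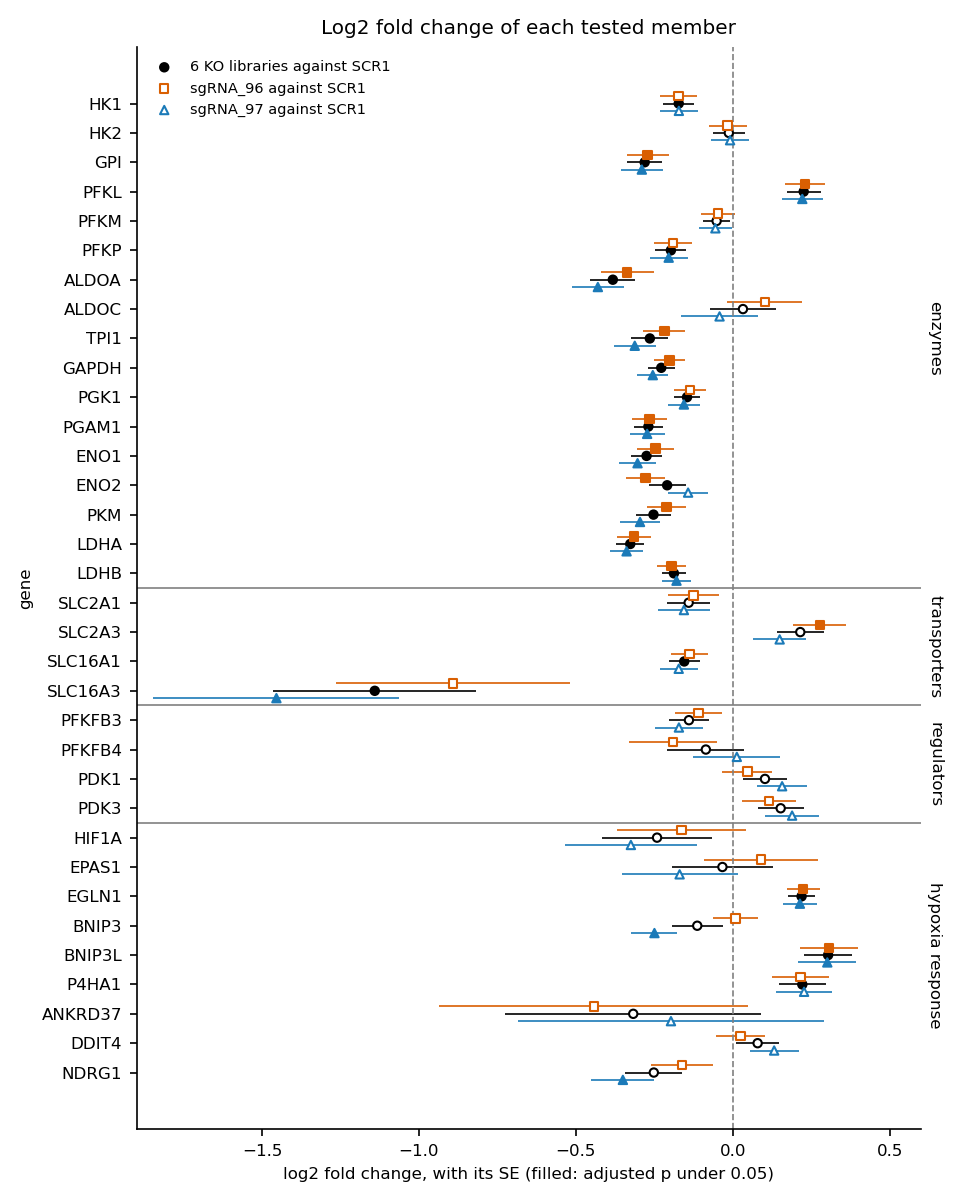
Points give the log2 fold change of each tested member with its SE for the 6 KO libraries (black), sgRNA_96 (orange) and sgRNA_97 (blue), each against SCR1 and filled where the adjusted p was under 0.05. Enzymes other than PFKL and ALDOC sit at or left of 0, and EGLN1, BNIP3L and P4HA1 sit right of 0.

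Of 9 tested hypoxia response genes, 3 rose, where 10.1% of all genes tested rose, and none fell, where 10.6% fell. Their median log2 fold change was -0.03, and 5 of the 9 had a negative one. EGLN1 (ENSG00000135766.9, chromosome 1, 231363751 to 231422287, minus strand), the main prolyl hydroxylase that marks HIF alpha subunits and itself a HIF target, was at 100.1, 100.1 and 101 CPM in SCR1, 115, 113 and 124 CPM with sgRNA_96 and 113, 117 and 119 CPM with sgRNA_97. The 3 controls were nearly equal and all KO libraries lay above them, a rise of 16.4% (log2 fold change 0.22 ± 0.04 SE, adjusted p = 0.00252). BNIP3L, a receptor for the autophagy of mitochondria, stood at 17.6, 17.6 and 16.9 CPM in SCR1, 19.04, 22.8 and 22.5 CPM with sgRNA_96 and 21.2, 20.3 and 22.7 CPM with sgRNA_97, with no overlap (log2 fold change 0.30 ± 0.08 SE, adjusted p = 0.0115). Its call was lost without SCR1 replicate 4 and on the TPM scale. P4HA1, a collagen prolyl hydroxylase subunit, was at 27.7, 32.3 and 30.2 CPM in SCR1, 32.97, 32.7 and 38.8 CPM with sgRNA_96 and 38.3, 34.6 and 32.5 CPM with sgRNA_97. The lowest KO value exceeded the highest control by little, and the call (log2 fold change 0.22 ± 0.08 SE, adjusted p = 0.0475) was lost in 10 of 19 alternatives.

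The remaining members of the group gave no call in the pooled comparison. BNIP3, a paralog of BNIP3L with the same kind of role, was at 27.97, 29.3 and 28.03 CPM in SCR1, 28.9, 28.8 and 28.05 CPM with sgRNA_96 and 25.1, 23.3 and 23.3 CPM with sgRNA_97. The sgRNA_96 values fell among the controls and the sgRNA_97 values below them, but the guides did not differ past the threshold (log2 difference -0.26 ± 0.07 SE, sgRNA_97 minus sgRNA_96, unadjusted p = 0.00326, which did not pass the adjustment). DDIT4 (REDD1), an inhibitor of mTORC1 under stress, was at 77.5, 77.6 and 73.2 CPM in SCR1, 75.02, 86.9 and 70.1 CPM with sgRNA_96 and 75.98, 89.5 and 84.3 CPM with sgRNA_97 (log2 fold change 0.08 ± 0.07 SE, adjusted p = 0.458). NDRG1, a stress-response gene, was at 40.3, 33.9 and 34.6 CPM in SCR1 and from 26.5 to 35.3 CPM (median 30.3) in the KO libraries (log2 fold change -0.25 ± 0.09 SE, adjusted p = 0.0607), and it fell with sgRNA_97 in the test of each guide (log2 fold change -0.35, adjusted p = 0.0295). ANKRD37, a HIF-responsive ankyrin repeat gene, had only 9 to 26 counts per library (log2 fold change -0.32 ± 0.41 SE). EGLN3, the prolyl hydroxylase most strongly induced by HIF in many cells, was listed at 0 in 8 libraries and had 1 count in SCR1 replicate 4.

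Of the HIF alpha subunits EPAS1 (HIF2A) was rare, at 1.34 ± 0.226 TPM (SD, n = 3) in SCR1. HIF1A stood at 27.2 ± 8.35 TPM, but this value rests almost wholly on the short transcript described below. It is therefore not comparable with the TPM of other genes. EPAS1 was at 4.31, 4.504 and 3.88 CPM in SCR1, 4.35, 3.89 and 5.26 CPM with sgRNA_96 and 4.103, 3.68 and 3.504 CPM with sgRNA_97, with a log2 fold change of -0.03 ± 0.16 SE. HIF1A (ENSG00000100644.17, chromosome 14, 61695513 to 61748259, plus strand) was at 7.98, 5.82 and 11.1 CPM in SCR1, 9.02, 7.25 and 6.08 CPM with sgRNA_96 and 7.28, 5.68 and 7.01 CPM with sgRNA_97. The controls spread more widely than the KO libraries, and the difference did not pass the test (log2 fold change -0.24 ± 0.17 SE, adjusted p = 0.363). Its 102 to 235 counts per library were assigned to one short transcript: 99.6% of them lay on HIF1A-211, a model of 3 exons at the 5′ end of the gene (chromosome 14, 61695513 to 61721824, hg38) for which no coding sequence is annotated. The 4 protein-coding HIF1A transcripts together held between 0 and 2 counts per library, which is under the floor of 3 counts in all 9. No other tested member had so small a coding share, the next lowest being that of SLC2A1. The HIF1A value above therefore measures an abundance of 5′ sequence, and a fold change for the coding messenger RNA could not be computed from so few counts. The neighbouring genes SNAPC1 and PRKCH were expressed at 26.9 ± 1.81 and 27.4 ± 1.203 TPM in SCR1 (SD, n = 3), and ARNT, the beta subunit with which HIF alpha subunits pair, at 19.5 ± 1.56 TPM. Why the counts stop at the 5′ part of HIF1A was not tested.

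**Figure D4:**
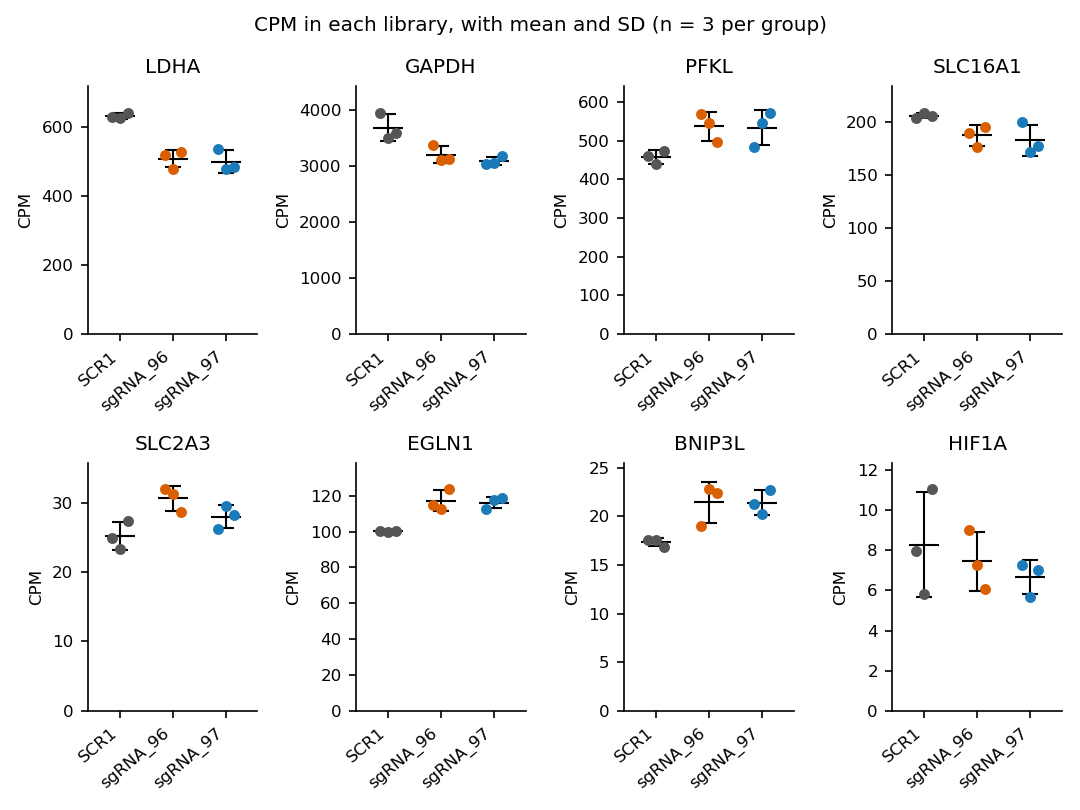
Dots give CPM per library from 0 for 8 members, with the mean (bar) and SD of each group (n = 3). LDHA, GAPDH and SLC16A1 are lower and PFKL, EGLN1 and BNIP3L higher in all 6 KO libraries than in any control, while the SLC2A3 and HIF1A values overlap.

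Each guide was then compared with the same 3 SCR1 libraries, so the 2 comparisons are not independent. With sgRNA_96, 10 members fell, all of them enzymes, where 5.41% of all genes fell, and 4 rose, where 5.78% of all genes rose. The 4 were PFKL, SLC2A3, EGLN1 and BNIP3L. With sgRNA_97, 14 members fell, where 7.76% of all genes fell, and 3 rose, where 7.35% rose. Those that fell were 11 enzymes, SLC16A3, BNIP3 and NDRG1, and those that rose were PFKL, EGLN1 and BNIP3L. LDHA had a log2 fold change of -0.32 ± 0.05 SE with sgRNA_96 and -0.34 ± 0.05 SE with sgRNA_97. PFKL had 0.23 ± 0.06 and 0.22 ± 0.06, and ALDOA -0.34 ± 0.08 and -0.43 ± 0.08. Other members lay further apart: ENO2 had -0.28 ± 0.06 and -0.14 ± 0.06, and SLC16A3 -0.89 ± 0.37 and -1.45 ± 0.39. The median absolute log2 difference between the guides was 0.06 over the 34 tested members and 0.07 over all genes tested. In the direct test of sgRNA_97 against sgRNA_96 no member passed the threshold, as for all but 3 genes of the table (0.0208%). At an unadjusted p under 0.05 there was 1 of 34 members, BNIP3, named after its value was seen, and 503 of all 14436 genes (3.48%). DESeq2 also called 0 members in this comparison. The number called per guide rested on single libraries. With sgRNA_96 it was 3 without SCR1 replicate 1, 7 without SCR1 replicate 4, 4 without sgRNA_96 replicate 3 and 8 without sgRNA_96 replicate 4. With sgRNA_97 it was 7 without SCR1 replicate 1, 8 without SCR1 replicate 4, 7 without sgRNA_97 replicate 3 and 11 without sgRNA_97 replicate 4.

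Genes around the pathway were read from lists chosen by function, in the comparison of the 6 KO libraries in which 10.1% of all genes rose and 10.6% fell. Glucose itself is sensed by the transcription factor MondoA (MLXIP) with its partner MLX, whose best known target is TXNIP, an arrestin-like protein that restrains glucose uptake. Of 6 such genes 5 were tested, and 4 rose while MLX did not pass the test. TXNIP stood at 54.9, 65.8 and 64.7 CPM in SCR1, 106, 151 and 114 CPM with sgRNA_96 and 141, 159.8 and 147 CPM with sgRNA_97, with all KO libraries far above the controls (log2 fold change 1.15 ± 0.11 SE, adjusted p = 5.23e-06). ARRDC4, its paralog and also a MondoA target, was at 5.296, 7.13 and 6.81 CPM in SCR1 and from 9.39 to 13.3 CPM (median 11.2) in the KO libraries (log2 fold change 0.83 ± 0.13 SE, adjusted p = 0.000435). MLXIP itself was at 163, 164 and 162 CPM in SCR1 and from 213 to 234 CPM (median 225) in the KO libraries (log2 fold change 0.47 ± 0.04 SE, adjusted p = 1.95e-06). KLF10, a further target, had a log2 fold change of 0.38 (adjusted p = 0.04202).

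The pentose phosphate pathway, which branches off at glucose 6-phosphate to make NADPH and ribose, was mostly lower as well. Of 11 genes tested, 6 fell and 1 rose. PGD, the second NADPH-making dehydrogenase, was at 295, 266 and 281 CPM in SCR1 and from 206 to 239 CPM (median 219.9) in the KO libraries (log2 fold change -0.35 ± 0.05 SE, adjusted p = 0.000127). TALDO1 (log2 fold change -0.35, adjusted p = 0.00197) and TKT (-0.21, adjusted p = 0.0149), the enzymes that return pentoses to glycolysis, fell too. H6PD, the NADPH-making enzyme of the endoplasmic reticulum, rose (0.30, adjusted p = 0.00131). Of 13 tested genes for pyruvate entry into mitochondria, 5 fell and 1 rose. PDHA1, the catalytic subunit of pyruvate dehydrogenase, was at 127, 119 and 132 CPM in SCR1 and from 108 to 115 CPM (median 112) in the KO libraries (log2 fold change -0.18 ± 0.04 SE, adjusted p = 0.0104). MPC2, a subunit of the mitochondrial pyruvate carrier, and PC, pyruvate carboxylase, had log2 fold changes of -0.26 and -0.28 (adjusted p = 0.0115 and 0.0124). PDPR, the regulatory subunit of pyruvate dehydrogenase phosphatase, rose (0.23, adjusted p = 0.0107).

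Further glycolytic isozymes, transporters and side branches gave 2 rises and 2 falls among 15 tested of 31. SLC2A5 and ENO3, the muscle enolase, rose, and PGAM5, a mitochondrial phosphatase, and BSG, the chaperone of SLC16A1, fell. Among 10 glycogen genes PYGL, a glycogen phosphorylase, fell (-0.29, adjusted p = 0.0007604) and PHKB, a phosphorylase kinase subunit, rose (0.19, adjusted p = 0.00894). The oxygen-sensing genes numbered 11 tested of 13, and 4 fell. EGLN2, the prolyl hydroxylase paralog of EGLN1, was at 65.7, 64.4 and 69.8 CPM in SCR1 and from 49.7 to 62.2 CPM (median 56.4) in the KO libraries (log2 fold change -0.25 ± 0.06 SE, adjusted p = 0.0107), opposite in direction to EGLN1. ELOC and RBX1, partners of VHL in the ubiquitin ligase, had log2 fold changes of -0.19 and -0.15 (adjusted p = 0.0154 and 0.0404). VHL itself did not pass the test (log2 fold change 0.03 ± 0.05 SE, adjusted p = 0.673). Of 40 other hypoxia response genes 30 were tested, and 6 rose and 4 fell, so the wider list had no single direction (median log2 fold change -0.02). KDM5B and KDM4C, histone demethylases, and WSB1 rose by log2 fold changes of 0.34, 0.33 and 0.34 (adjusted p = 0.000105, 0.000737 and 0.000216). HILPDA, a lipid droplet protein, stood at 18.5, 20.1 and 18.7 CPM in SCR1 and from 13.5 to 15.4 CPM (median 14.9) in the KO libraries and fell (log2 fold change -0.38 ± 0.08 SE, adjusted p = 0.00244), as did TFRC, the transferrin receptor, and STC2. VEGFA, the angiogenic factor, was at 32.6, 31.4 and 34.6 CPM in SCR1 and from 29.9 to 39.1 CPM (median 33.3) in the KO libraries (log2 fold change 0.04 ± 0.07 SE, adjusted p = 0.724), and CA9, a carbonic anhydrase strongly induced by HIF, was listed at 0 in every library.

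**Figure D5:**
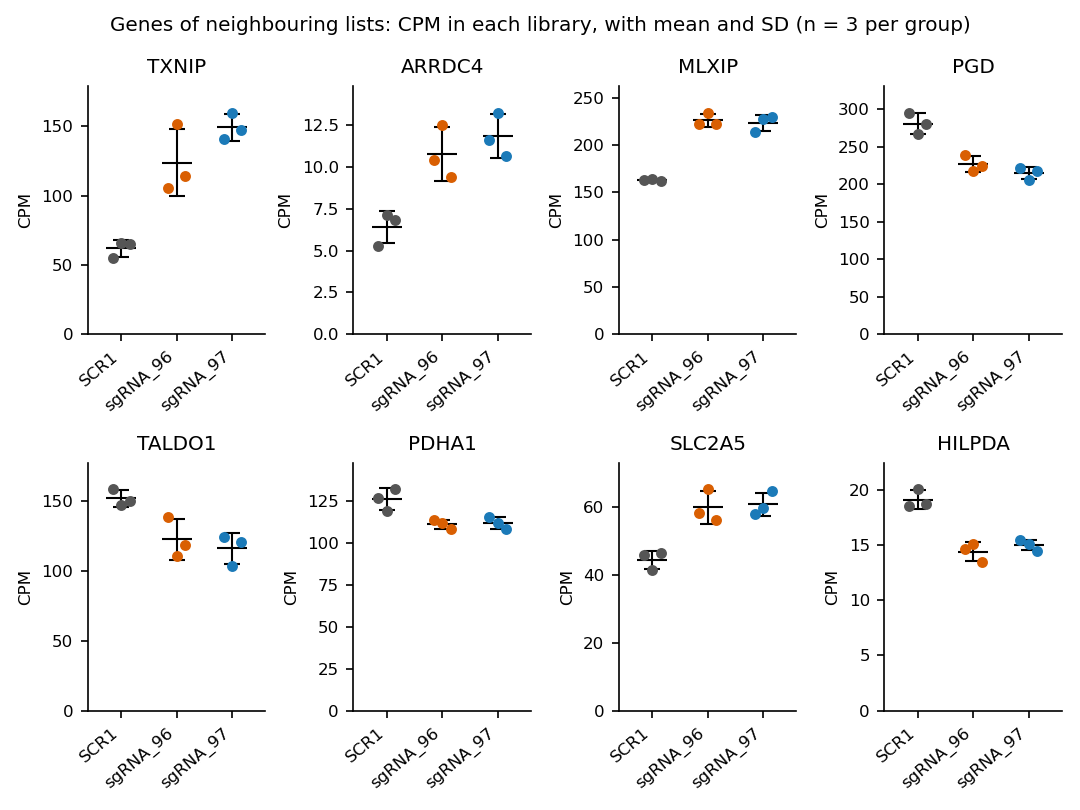
Dots give CPM per library from 0 for 8 genes of the neighbouring lists, with the mean (bar) and SD of each group (n = 3). TXNIP, ARRDC4, MLXIP and SLC2A5 are higher, and PGD, TALDO1, PDHA1 and HILPDA lower, in all 6 KO libraries than in any control.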

How the data were processed

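Messenger RNA was sequenced from 9 samples of HAL-01, grouped by their labels. The authors deposited, per transcript, estimated counts and TPM made by Salmon 1.10.1, with STAR and GRCh38 named in their processing notes. The annotation was checked against GENCODE release 44: all 252835 transcript names matched it. TPM, which the authors' pipeline scaled to a sum of 1000000 per library, was read as deposited. The strand setting is not given in the sources used here.

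Estimated counts were summed per gene, rounded and tested with edgeR 4.0.16 (R 4.3.3): TMM scaling, filterByExpr with a minimum count of 10, quasi-likelihood test, Benjamini-Hochberg adjustment over 14436 genes, threshold 0.05. One model set the 6 KO libraries against SCR1, and another with 3 groups tested each guide and the guides against each other. The PKM2 share was tested by exact permutation over 84 arrangements. Alternatives used DESeq2 1.42.0, limma 3.58.1 on log2(TPM + 1), other scalings and filters, a gene length offset, a replicate block and the omission of each library. Offsets for trends in length or GC content were chosen after seeing the data. The edgeR fit was tested on simulated counts with known changes, all larger than those found for the enzymes. Changes of the enzymes' size and the PKM2 share were not simulated. No pair of replicates agreed within sampling noise (chi-square per degree of freedom 4.31 to 8.59).

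The members and all lists were chosen with earlier results of these data known. By rule, values in every library are given for called members and for GAPDH, PKM, LDHA, LDHB, PGK1, SLC2A1, PDK1, HIF1A, EPAS1, EGLN3, BNIP3 and DDIT4, the other members by level and fold change, and from each neighbouring list at most the 3 called genes per direction with the smallest adjusted p. VEGFA, CA9, VHL, MLX, KLF10, LDHC, ARNT, HIF1AN, the cell type markers and genes overlapping or next to a member fall outside it and were named after their values were seen. Every measured column belonged to a labelled sample (0 did not). Columns were matched by title. The floor of 3 counts used here was a fixed setting that covers counting error only, and low counts above it also limit precision.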

Additional observations from a re-analysis of the deposited data

Results flagged for a closer look

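PDK3 in sgRNA_96 replicate 1 stood at 28.7 CPM, apart from the other 5 KO libraries, whose lowest was 33.7 and highest 36.1 CPM. The gap was 0.679 of the group's range, over Dixon's 95% critical value for 6 libraries. It was the only 1 of 34 members so marked, where chance marks about 1 in 20 groups. Without that library PDK3 had a log2 fold change of 0.19 and passed the threshold, which it did not with all libraries (0.15, adjusted p = 0.159 in edgeR).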

How the results depend on the processing

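Over 19 alternatives none of the 19 called members changed direction, and 3 (PGAM1, LDHA and LDHB) kept their call in all. The number of members called in the KO comparison, 19, was 11 with a gene length offset, 11 with limma on log2(TPM + 1) and 3 with limma without a filter, and 11 to 21 when single libraries were left out. Fallen enzymes, 13, numbered 8, 8 and 3, and 8 to 13. For sgRNA_96 the 14 became 5, 2 and 0, 9 with an offset for a length trend, and 3 to 13. For sgRNA_97 the 17 became 8, 5 and 1, and 7 to 17. Without SCR1 replicate 1 these 4 counts were 11, 8, 3 and 7, and without SCR1 replicate 4 they were 13, 10, 7 and 8. The causes were not tested, beyond the smaller number of samples. No member was called between the guides in any alternative. With all PKM transcripts as denominator the PKM2 share differed by -2.296 percentage points and passed the threshold.

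Directions that turned belonged to members without a call. With upper quartile scaling, the gene length offset and TPM with or without a filter, HK2 was at 5.84e-05, 0.012, 0.014 and 0.014 on the log2 scale. With the gene length offset and TPM, PFKFB4 was at 0.16 and 0.11, PDK1 at -0.0054 and -0.0043 (-0.031 with the length trend), PDK3 at -0.023 and -0.018, and EPAS1 at 0.43 and 0.25. When single libraries were left out the log2 fold changes ran from -0.034 to 0.024 for HK2, -0.0076 to 0.11 for ALDOC, -0.43 to 0.015 for HIF1A, -0.12 to 0.011 for EPAS1 and -0.73 to 0.076 for ANKRD37. The causes were not tested.

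Replicate numbers 1, 3 and 4 occur in every group, but same-numbered libraries did not deviate together: the correlations of their deviations ran from -0.106 to 0.0793, and a library correlated best with its own number in 7 of 18 comparisons. The numbers were therefore not taken as pairs. With the replicate block 19 members were called in the KO comparison, 12 with sgRNA_96 and 16 with sgRNA_97; P4HA1 lost its call and NDRG1 gained one.

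Low counts limit SLC16A3, ANKRD37, HIF1A and EPAS1, and no statement on the coding HIF1A messenger RNA or on PFKFB2 and EGLN3 was possible at this depth. With 3 controls, 1 of them decides several calls.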

Other observations

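HIF1AN, the asparagine hydroxylase that also restrains HIF alpha subunits, was at 12.3 ± 0.489 TPM in SCR1 (SD, n = 3), and the members together took 1.11 to 1.21% of the counts in SCR1 and 0.959 to 1.07% in the KO libraries.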
